A study of Mus musculus with 4 samples.

Results

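Regions bound by the transcription factor WT1 in late embryonic mouse kidney and lying at the ends of genes were described. A region was taken where both WT1 samples had a peak, the irreproducible discovery rate (IDR) was at most 0.05, and the midpoint lay within 1 kb of either end of a protein-coding RefSeq gene on chromosomes 1 to 19. There were 848 such regions among 4360 reproducible regions on these chromosomes and 17234 overlap regions in the whole deposited table. The IDR estimates the share of irreproducible calls among regions at least as well matched between replicates. It does not tell whether a call made in both replicates is true binding. The regions were chosen by the IDR and by their position, so both are given as a description. Chromatin came from kidneys microdissected from wild-type embryos at stage E18.5, late in gestation, on a mixed background made by crossing C57Bl6 with B6DBA/F1. The WT1 group had 2 samples from experiments described as independent, precipitated with an antibody to WT1, and the negative control group had 2 samples, precipitated with IgG. How many embryos went into a sample is not stated. All 4 samples shared genotype, stage and background. The library protocol in the labels leaves a choice of enzymes to cut the DNA, and the choice for each sample is not stated. Values here come from the WT1 samples, and the IgG samples were not used here. Whole kidneys hold many cell types, and the peak lists do not tell which of them carried WT1 at a region. They hold no expression, so the labelled tissue could not be checked against marker RNA.

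WT1 is a zinc-finger protein named for Wilms' tumour, a childhood kidney cancer. It is needed for the survival of nephron progenitors, the cells from which all nephrons form, and it stays high in podocytes, the cells of the glomerulus whose foot processes and slit diaphragm hold back protein from the urine. Its zinc fingers bind GC-rich sequence related to the sites of the EGR family.

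Sequences are shown for the 8 regions of lowest IDR whose midpoint lay in a RefSeq promoter window with a WT1-type match inside the region, because they are the places where a called region, a gene start and a WT1-type sequence coincided. The match searched was GNGTGGGNG on both strands, with N any base. Each line gives the overlap of the region with the window, ending at most 30 bases past the annotated start, on the strand of the gene, 5′ to 3′, from RefSeq (GRCm38.p6). Capitals mark the matches, and where they read C for G the match lies on the other strand. Smim13 encodes a small membrane protein, and its stretch lies at chr13:41249648-41249873, plus strand. Gxylt2, a glucoside xylosyltransferase that extends O-glucose on Notch repeats, lies at chr6:100704484-100704763, plus strand. Zfp597, a zinc-finger gene whose window lay in the region at Zfp174 and Naa60, lies at chr16:3872345-3872624, minus strand. Usp16, a histone H2A deubiquitinase, lies at chr16:87454773-87455014, plus strand. Sost, the secreted Wnt inhibitor sclerostin, lies at chr11:101967008-101967265, minus strand. Mov10, an RNA helicase, lies at chr3:104818534-104818813, minus strand. Gas1, a GPI-anchored co-receptor of nephron progenitors, lies at chr13:60177506-60177785, minus strand. Lamb1, the laminin beta 1 chain, lies at chr12:31265043-31265322, plus strand.
Smim13: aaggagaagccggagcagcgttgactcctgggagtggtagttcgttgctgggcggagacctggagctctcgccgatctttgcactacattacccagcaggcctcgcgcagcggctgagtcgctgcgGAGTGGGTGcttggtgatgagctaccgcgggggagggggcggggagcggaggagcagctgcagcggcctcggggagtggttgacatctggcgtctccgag
Gxylt2: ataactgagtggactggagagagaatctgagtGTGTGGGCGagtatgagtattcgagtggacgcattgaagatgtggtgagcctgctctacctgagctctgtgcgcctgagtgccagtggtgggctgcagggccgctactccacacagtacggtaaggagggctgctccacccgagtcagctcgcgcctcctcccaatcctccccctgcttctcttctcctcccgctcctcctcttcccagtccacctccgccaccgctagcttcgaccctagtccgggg
Zfp597: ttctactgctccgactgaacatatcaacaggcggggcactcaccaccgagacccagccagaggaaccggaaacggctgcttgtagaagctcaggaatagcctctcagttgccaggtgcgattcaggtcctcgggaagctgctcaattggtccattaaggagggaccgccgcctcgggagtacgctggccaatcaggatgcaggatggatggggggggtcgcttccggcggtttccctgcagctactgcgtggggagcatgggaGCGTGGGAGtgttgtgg
Usp16: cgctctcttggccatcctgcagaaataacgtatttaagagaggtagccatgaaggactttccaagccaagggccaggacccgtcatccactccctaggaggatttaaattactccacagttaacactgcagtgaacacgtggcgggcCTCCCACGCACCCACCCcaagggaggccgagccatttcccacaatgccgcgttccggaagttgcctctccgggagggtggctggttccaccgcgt
Sost: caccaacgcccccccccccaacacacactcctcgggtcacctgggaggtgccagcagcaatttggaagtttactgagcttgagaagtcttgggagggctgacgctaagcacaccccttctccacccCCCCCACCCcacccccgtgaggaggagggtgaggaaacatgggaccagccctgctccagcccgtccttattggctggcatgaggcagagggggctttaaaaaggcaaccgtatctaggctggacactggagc
Mov10: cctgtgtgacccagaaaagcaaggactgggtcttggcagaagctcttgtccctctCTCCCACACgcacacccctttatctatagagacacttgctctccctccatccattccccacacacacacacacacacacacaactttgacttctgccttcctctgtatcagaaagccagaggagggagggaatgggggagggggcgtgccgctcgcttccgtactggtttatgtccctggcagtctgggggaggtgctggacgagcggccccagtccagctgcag
Gas1: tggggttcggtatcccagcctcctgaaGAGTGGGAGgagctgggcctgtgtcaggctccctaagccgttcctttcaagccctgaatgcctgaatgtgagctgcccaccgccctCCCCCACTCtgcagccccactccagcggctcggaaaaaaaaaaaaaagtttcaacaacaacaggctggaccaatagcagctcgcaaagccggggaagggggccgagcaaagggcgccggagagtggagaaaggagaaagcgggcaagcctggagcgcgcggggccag
Lamb1: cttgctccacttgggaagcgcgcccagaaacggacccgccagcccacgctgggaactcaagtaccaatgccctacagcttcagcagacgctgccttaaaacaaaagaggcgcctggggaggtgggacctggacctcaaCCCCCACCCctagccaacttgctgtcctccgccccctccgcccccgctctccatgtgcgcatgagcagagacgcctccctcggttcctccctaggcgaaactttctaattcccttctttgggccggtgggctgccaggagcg

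The stretches at Gas1 and Usp16 each held 2 matches, and the other 6 stretches held 1 each. At Smim13 the significance value, a p- or q-value that the authors gave each peak, was 1.22e-37 in replicate 1 and 3.99e-61 in replicate 2. The Gxylt2 region had 1.49e-29 in replicate 1 and 1.04e-59 in replicate 2. The Usp16 region had 1.79e-25 in replicate 1 and 1.92e-62 in replicate 2. In all 3 the value was smaller in replicate 2. The Mov10 region was nearly even, at 2.71e-51 in replicate 1 and 1.29e-52 in replicate 2.

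Among the 15 regions of lowest IDR at gene ends were those of Nek10 and Bcat2. Nek10, a kinase of the NIMA family, had 8.91e-89 in replicate 1 and 2.99e-93 in replicate 2. Bcat2, the mitochondrial aminotransferase of branched-chain amino acids, had 4.48e-53 in replicate 1 and was listed at 0 in replicate 2. Others among the 15 lay at Smim41, Efs, Plk2, Pik3r3, Rnf24, Zcchc3, Rxra, Arf3 with LOC115488470, Gsr, Smim13, Plat and Rcbtb1. They include genes of signalling (the adaptor Efs, the polo-like kinase Plk2 and the PI3-kinase subunit Pik3r3), of redox balance (glutathione reductase, Gsr) and of fibrinolysis (tissue plasminogen activator, Plat). Rxra, the retinoid X receptor that pairs with retinoic acid receptors, had 7.23e-40 in replicate 1 and 7.94e-74 in replicate 2. Of the 15, the Zcchc3 region alone lay at the far end of its gene, where RefSeq gave a strand.

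Replicate 2 had smaller values than replicate 1 at most of the regions, all of which have a peak in both replicates by the rule. The median value was 2.33e-06 in replicate 1 (lowest 3.04e-91, highest 0.0314) and 3.8e-13 in replicate 2 (lowest 0, highest 0.0156). Replicate 2 had the smaller value in 793 of 848 regions (93.5%, exact Clopper-Pearson 95% interval 91.6 to 95.1), against 3143 of 3512 reproducible regions elsewhere (89.5%, 88.4 to 90.5). Read depth is unknown, so a value cannot be compared between the replicates as an amount of binding. Over the 848 regions, which share the same 2 libraries, Spearman's rank correlation between the replicates' values was 0.72, as a description. It was 0.72 over the 3512 regions elsewhere as well.

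**Figure D1:**
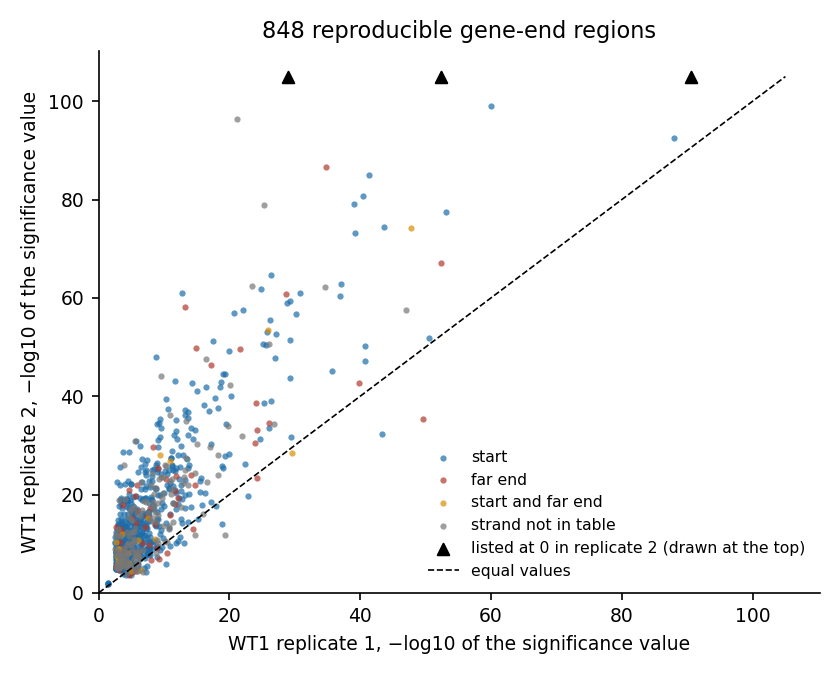
Significance values of the 848 regions, as −log10, in WT1 replicate 1 (x axis) and WT1 replicate 2 (y axis), coloured by which end of a gene lay within 1 kb. Most points lie above the dashed line of equal values, and the 3 regions listed at 0 in replicate 2 are drawn as triangles at the top.

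Of the 6 regions whose rank differed most between replicates, 4 ranked higher in replicate 2. Itga3, the laminin-binding integrin alpha 3 of podocytes, had 0.00147 in replicate 1 and 2.74e-23 in replicate 2, ranks 796 and 188 of 848. Tnfrsf1a, a TNF receptor, had 0.000522 in replicate 1 and 2.67e-26 in replicate 2. Gldc, of glycine breakdown, and Bcl9, a Wnt co-activator, also ranked higher in replicate 2, with 2e-29 and 1.47e-22 there. The other 2 went the opposite way. Llgl1, a cell polarity gene, had 5.59e-11 in replicate 1 and 1.58e-06 in replicate 2, ranks 199 and 754. Pth2r, a parathyroid hormone receptor, had 6.69e-08 in replicate 1 and 5.68e-05 in replicate 2. At Itga3, Gldc and Bcl9 the region lay over 2 peaks of replicate 1 and 1 of replicate 2. The value used is that of the peak with the smallest value. Regions over 2 or more peaks numbered 107 of 848 (12.6%) in replicate 1 and 48 (5.66%) in replicate 2. The part of split peaks in these ranks was not tested. By replicate 1 alone, 647 of the 848 regions (76.3%) lay over 1 of its 4360 peaks of smallest value, against 2800 of the 3512 regions elsewhere (79.7%). By replicate 2 alone it was 704 (83.0%), against 2702 elsewhere (76.9%). The share at gene ends was thus below that elsewhere by replicate 1 and above it by replicate 2.

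Overlap regions at gene ends had a low IDR more often than those elsewhere. An IDR of at most 0.05 was reached by 848 of 2450 overlap regions at gene ends (34.6%, 32.7 to 36.5), against 3512 of 14548 elsewhere (24.1%, 23.4 to 24.8), with 25.7% over all of them. This share uses the IDR that chose the regions and has no test. Within the reproducible regions the IDRs at gene ends were close to those elsewhere. An IDR of at most 1e-06 was found in 39 of the 848 (4.60%, 3.29 to 6.23), against 217 of 3512 elsewhere (6.18%, 5.41 to 7.03). The median IDR was 0.00259 at gene ends and 0.00267 elsewhere.

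Regions at gene ends spanned a median of 339 bp (lowest 72, highest 1326), against 379 bp for reproducible regions elsewhere and 207 bp for the 1602 weaker overlap regions at gene ends, those with an IDR over 0.05. The widest lay at Wdtc1 (1326 bp), an adaptor of a ubiquitin ligase, Mex3b (1277 bp), an RNA-binding protein, and Smim41 (1123 bp). The narrowest lay at Myo9a with Senp8 (72 bp), at Erbb2 (78 bp) and at Akap9 (93 bp). Erbb2, a receptor kinase of the EGF receptor family, had a second region of 477 bp. Wider regions had lower IDRs, with a rank correlation of -0.39 over the 848 regions, which share 2 libraries and a peak caller.

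Most regions lay at the start of a gene, not at its far end. The promoter windows of RefSeq gave a strand to 16457 of 20665 protein-coding genes and so to a gene at 699 of the regions. Of these 699, 637 were within 1 kb of a start (91.1%, 88.8 to 93.1), against 1149 of 1277 weaker regions (90.0%, 88.2 to 91.6). Per gene, 624 of 16457 had a reproducible region at the start (3.79%) and 83 at the far end (0.504%). The midpoint lay before the start in 357 of 637 regions (56.0%, 52.1 to 59.9), and 209 of 699 regions spanned an annotated start. From 500 to 250 bp before the start lay 112 midpoints (17.6% of 637, against 13.8% of 1149 weaker regions). From 250 to 100 bp before it lay 110 (17.3%, against 13.1% of weaker regions). The last 100 bp before the start held 10.8%, against 9.40% of weaker regions, and the first 100 bp after it 8.63%, against 6.96%. More than 500 bp before the start and more than 100 bp after it, the shares were below those of weaker regions. From 1000 to 500 bp before the start lay 10.4%, against 12.4%. From 100 to 250 bp after it lay 9.73%, against 12.1%, from 250 to 500 bp after it 9.26%, against 13.1%, and from 500 to 1000 bp after it 16.3%, against 19.1%.

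**Figure D2:**
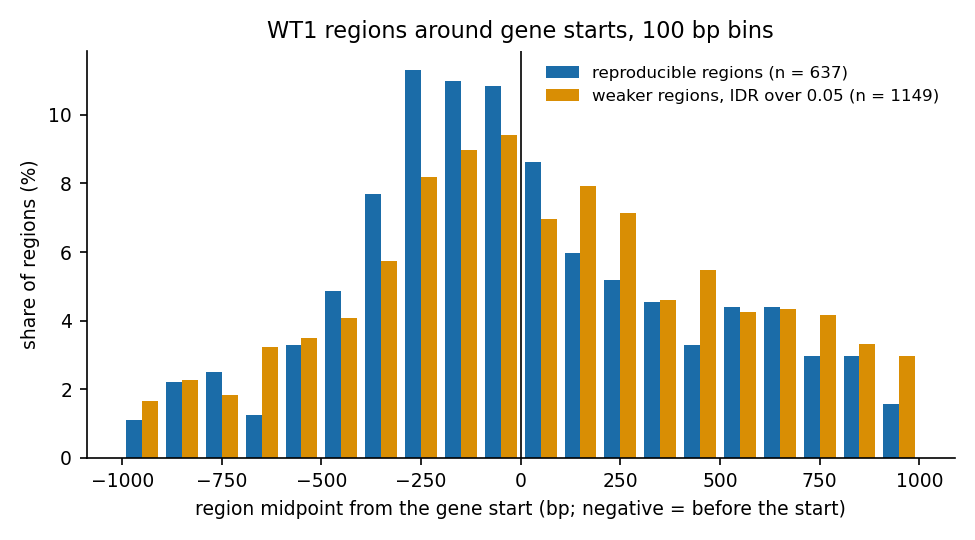
Share of regions (y axis, %) by the distance of the midpoint from the gene start (x axis, bp) in 100 bp bins, for 637 reproducible and 1149 weaker regions at starts. Reproducible regions are most frequent in the 3 bins just before the start.

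The 62 regions at far ends alone were a small group with low values. Their median was 1.84e-08 in replicate 1 and 4.24e-16 in replicate 2, against 4.51e-06 and 5.94e-13 for the 616 regions at starts alone. Their median width was 409.5 bp, against 328 bp at starts. The Zcchc3 region, at a gene for a nucleic-acid-binding zinc-finger protein, had 4.87e-53 in replicate 1 and 9.15e-68 in replicate 2. Slc9a8, a sodium-proton exchanger, had 1.4e-40 in replicate 1 and 1.81e-43 in replicate 2 at its far end. Uncx, a homeobox gene of nephron progenitors, had 2.31e-50 in replicate 1 and 3.84e-36 in replicate 2 and is among the few with the smaller value in replicate 1. Wnt8b and Wnt1, both Wnt ligands, also had their region at the far end, with 2.06e-39 and 6.01e-07 in replicate 2. A region near a far end is not thereby assigned to that gene.

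Neighbouring genes shared 98 of the 848 regions (11.6%, 9.48 to 13.9), against 193 of 1602 weaker regions (exact interval 10.5% to 13.7%). Of the 96 regions with exactly 2 genes, 43 lay nearest to the starts of genes on opposite strands. Another 18 lay at a start and a far end, 4 at the far ends of both, and 3 at starts on the same strand. At the other 28 the strand of a gene was not in the table. Such a region counts for both genes. The lowest IDR among them was at Arf3, a small GTPase of the Golgi, and LOC115488470, with 9.19e-54 in replicate 1 and 4.04e-78 in replicate 2. Ptk7, a receptor of planar cell polarity signalling, and Klc4, a kinesin light chain, shared a region with 1.16e-26 in replicate 1 and 3.26e-54 in replicate 2. Zfp174 and Naa60, an acetyltransferase of the Golgi, shared one with 1.48e-48 in replicate 1 and 6.58e-75 in replicate 2. The start of Zfp597 whose window is printed above also lies in this region. It is inside the span of that gene, and genes were counted by their outermost ends, so Zfp597 is not counted here. A single region had 3 genes (Fam189b, Gm45927 and Scamp3), with 0.00102 in replicate 1 and 9.69e-10 in replicate 2. Another lay at the common end of the gamma protocadherin cluster on chromosome 18, where 24 genes, 21 of them protocadherins by symbol, end together. It had 0.0019 in replicate 1 and 1.64e-08 in replicate 2 with an IDR of 0.0343, so the 21 genes stand for 1 region.

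Some genes had several regions. There were 76 genes with 2 or more, and 5 with 3. The 5 were Rnf24, a RING-finger protein, Sp4, a zinc-finger factor that binds GC boxes, Nectin1, a cell adhesion molecule, Bcl9 and Secisbp2l, related to a selenocysteine insertion factor. Among genes with 2 were Nek10, Efs and Gsr. Ends of long non-coding RNA genes lay within 1 kb of 110 regions (13.0%). Ends of miRNA genes lay within 1 kb of 3 regions, namely Mir1934 at Mpdu1, Mir1938 at Ifrd1 and Mir5130 at Kctd12. For both kinds of RNA gene the share over weaker regions or all gene ends was not computed. These counts therefore do not tell whether such ends are frequent at the regions.

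Of all 20665 protein-coding genes, 888 had a reproducible region within 1 kb of an end (4.30%), and 2310 had any overlap region (11.2%). Gene lists were read against the 4.30%. Shares of 17 of 23 lists lay above it, and for 6 of them the exact interval lay above it too. The lists overlap and were chosen with earlier results known, so these counts are a description.

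**Figure D3:**
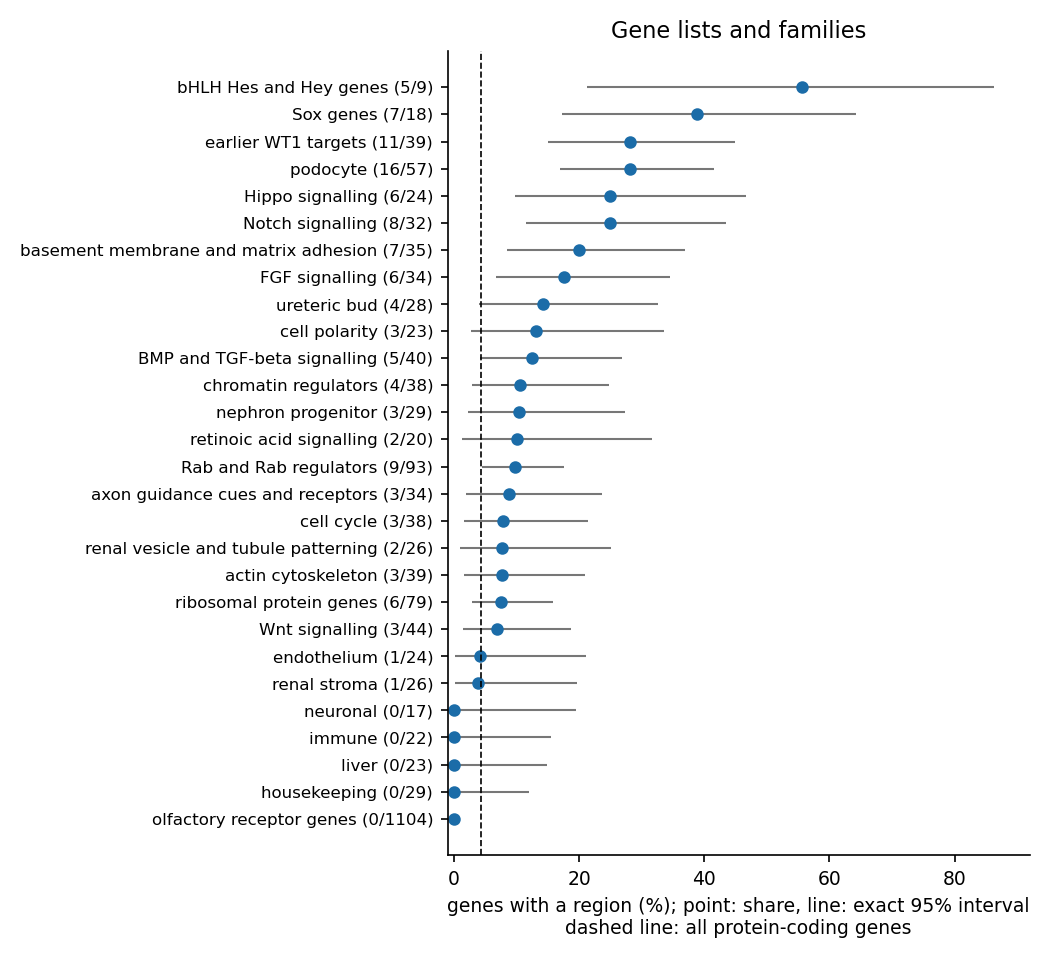
Share of genes with a reproducible region within 1 kb of an end (x axis, %) for 23 gene lists and 5 gene families (y axis), with exact 95% intervals and the 4.30% of all protein-coding genes as a dashed line. Hes and Hey, Sox, podocyte and earlier WT1 target genes are at the top, and olfactory receptor genes are at 0.

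Podocyte genes were among the lists with the highest shares. Of 57, 16 had a region (28.1%, 17.0 to 41.5), and their median IDR was 0.000139, against 0.00271 over all 888 genes with a region. The region at Wt1 itself, at chr2:105126176-105126691, had 5.2e-14 in replicate 1 and 1.39e-35 in replicate 2. Its midpoint was 95.5 bp from an end of the gene. The lowest IDR on the list was at Nes, the intermediate filament protein nestin, with 2.33e-26 in replicate 1 and 4.07e-51 in replicate 2. The extracellular sulfatases Sulf1 and Sulf2 remove sulfate from heparan sulfate in the glomerular basement membrane. The Sulf1 region had 1.37e-22 in replicate 1 and 1.28e-32 in replicate 2. Sulf2, with a region centred 5 bp before the start, had 3.4e-17 in replicate 1 and 1.29e-42 in replicate 2. Replicate 2 had the smaller value at both, as at 793 of the 848 regions.

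Podocyte adhesion genes with a region were Itgb1, the integrin beta 1 chain, its partner Itga3, and Cd151, a tetraspanin that binds this integrin. Itgb1 had 3.44e-11 in replicate 1 and 6.22e-25 in replicate 2. Cd151 had 0.00111 in replicate 1 and 1.43e-15 in replicate 2. Replicate 2 had the smaller value at each of these 3 genes, as at 93.5% of the regions. On the podocyte list, the genes of the actin cytoskeleton with a region before the start were Nck2 and Inf2. Nck2, which links nephrin to actin, had 1.26e-12 in replicate 1 and 4.11e-21 in replicate 2. Inf2, a formin mutated in inherited glomerulosclerosis, had 2.8e-05 in replicate 1 and 7.75e-17 in replicate 2.

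Dach1, a transcription factor of podocytes, had 9.93e-12 in replicate 1 and 4.74e-28 in replicate 2. Secreted signals on the list were Bmp7, a BMP that sustains nephron progenitors, and the semaphorins Sema3g and Sema3e. Bmp7 had nearly even values, 8.28e-11 in replicate 1 and 2.54e-11 in replicate 2. Sema3g, with its region at the far end, had 2.26e-09 in replicate 1 and 8.45e-15 in replicate 2. Sema3e had 4.07e-08 in replicate 1 and 6.45e-14 in replicate 2. Both semaphorin genes thus had the smaller value in replicate 2. Ildr2 had the highest IDR on the list, 0.0417, with 0.00238 in replicate 1 and 9.44e-07 in replicate 2.

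Nephron progenitor genes had 3 of 29 with a region (10.3%, 2.19 to 27.4). They were Uncx, Gas1 and Fgf20, each with an IDR of at most 1.25e-05. Gas1 had 2.96e-20 in replicate 1 and 4.45e-35 in replicate 2, and its promoter sequence is printed above, with 2 matches. Fgf20, an FGF ligand that maintains the progenitors, had 7.83e-14 in replicate 1 and 2.92e-24 in replicate 2. Ureteric bud genes had 4 of 28 (14.3%), among them Dusp6, a phosphatase that dampens FGF signalling, Etv4, an ETS factor downstream of Ret, and Spry2, a receptor kinase inhibitor. Without replicate 2 their share was 7.14%, against 3.56% of all genes in that setting. The renal stroma list had 1 of 26 (3.85%), and 7.69% with either replicate alone. Genes of the renal vesicle had 2 of 26 (7.69%), the Notch ligand Dll1 and the transcription factor Sox11. Their share was 11.5% without replicate 1, 3.85% without replicate 2, and 0 with gene ends within 500 bp.

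FGF signalling had 6 of 34 genes with a region (17.6%, 6.76 to 34.5). By role they were the ligand Fgf20, the receptor Fgfr4, the inhibitors Dusp6 and Spry2, and the target factors Etv4 and Etv1. Fgfr4, at the far end, had 8.88e-15 in replicate 1 and 8.98e-25 in replicate 2. Dusp6 had 9.36e-06 in replicate 1 and 7.74e-17 in replicate 2. In the BMP and TGF-beta list there were 5 of 40 (12.5%, 4.19 to 26.8), namely the ligand Bmp7, the receptors Acvr1b and Tgfbr2, the signal transducer Smad3 and the inhibitor Smad7. Acvr1b had 2.46e-19 in replicate 1 and 1.42e-42 in replicate 2. Smad3, with a region of 1000 bp, had 1.82e-09 in replicate 1 and 9.53e-49 in replicate 2.

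Notch signalling had 8 of 32 genes with a region (25.0%, 11.5 to 43.4). They were the ligand Dll1, the receptor Notch3, the co-activator Maml1 and 5 target repressors, Heyl, Hes1, Hey2, Hes7 and Hey1. The Hes7 region lay at the far end of the gene. As a family by symbol, Hes and Hey genes had 5 of 9 (55.6%, 21.2 to 86.3). Heyl, with 2 regions, had 1.36e-27 in replicate 1 and 4.06e-35 in replicate 2. Hes1 had 1.64e-10 in replicate 1 and 2.33e-14 in replicate 2, and Hey2 had 8.87e-08 in replicate 1 and 9.53e-22 in replicate 2. Hey1 was near the IDR threshold at 0.0439. Wnt signalling had 3 of 44 (6.82%, 1.43 to 18.7). The 3 were the kinase Gsk3b, the Dishevelled-binding protein Cxxc5 and the ligand Wnt7b, all with an IDR over 0.01. Without replicate 2 the Wnt share was 2.27%, below the 3.56% of all genes in that setting. Some Wnt genes named elsewhere in this report were not on this list. Their lowest IDRs were 9.12e-07 at Sost, 4.57e-06 at Bcl9, 9.48e-05 at Wnt8b and 0.0170 at Wnt1.

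Hippo signalling had 6 of 24 genes with a region (25.0%, 9.77 to 46.7), from the atypical cadherin Dchs1 upstream to the co-activator Wwtr1, known as TAZ, and the DNA-binding partner Tead3. Wwc1, known as KIBRA, had the lowest IDR of these, with 6.49e-15 in replicate 1 and 2.88e-34 in replicate 2. The Hippo genes Dchs1, Tead3 and Mob1a shared their region with Tpp1, Tulp1 and Mthfd2, in that order. Neighbouring genes shared 11.6% of all 848 regions. Basement membrane and matrix adhesion genes had 7 of 35 (20.0%, 8.44 to 36.9), 4 of which are also on the podocyte list. Lamb1 had 8.7e-23 in replicate 1 and 3.11e-58 in replicate 2. The retinoic acid list had 2 of 20 (10.0%), Rxra and the retinol dehydrogenase Rdh10, whose region is shared with the ribosomal protein gene Rpl7. Axon guidance had 3 of 34 (8.82%), Sema3g, Sema3e and the semaphorin receptor Plxna2. The list of actin cytoskeleton genes had 3 of 39 (7.69%), led by Actn1, an actinin, with 4.99e-17 in replicate 1 and 5.73e-21 in replicate 2.

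Cell polarity had 3 of 23 (13.0%), the Par complex gene Pard3b, Llgl1 and the planar polarity cadherin Celsr1, and 8.70% without replicate 2. Chromatin regulators had 4 of 38 (10.5%), among them the H3K4 methyltransferase Kmt2d and the acetyltransferases Kat2b and Ep300. The Kmt2d region lay 645.5 bp from the far end of that gene and was shared with Prkag1. The cell cycle list had 3 of 38 (7.89%), the kinase Wee1 and the factors Mycn and Trp53. Genes known from earlier work as WT1 targets had 11 of 39 (28.2%, 15.0 to 44.9). That list includes 6 podocyte and 5 nephron progenitor genes and rests in part on studies of this tissue, so its share is no independent evidence. Lists of other cell types and of genes used by every cell were too short to be told apart from the 4.30% of all genes. There was no region at any of 29 housekeeping, 23 liver, 17 neuronal or 22 immune genes, but the upper limits, 11.9%, 14.8%, 19.5% and 15.4%, all lie above 4.30%. Overlap regions of any IDR were at 4 of the 29 housekeeping genes (13.8%, against 11.2% of all genes). Plvap was the single gene with a region of 24 endothelial genes (4.17%), close to the share of all genes.

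Families by symbol spread from 0 to more than the podocyte list. Sox genes, HMG-box transcription factors, had 7 of 18 (38.9%, 17.3 to 64.3). Sox13 had the lowest IDR of them, with 1.49e-12 in replicate 1 and 6.51e-36 in replicate 2. Sox21 had 1.91e-09 in replicate 1 and 5.37e-15 in replicate 2, and Sox2 had 3.42e-08 in replicate 1 and 7.46e-12 in replicate 2. In all 7 the region of lowest IDR lay at a start, as did 91.1% of all regions with a strand. Hox genes had 3 of 39 (7.69%), Hoxb9, Hoxb3 and, at its far end, Hoxa9. Overlap regions of any IDR were at 14 of the 39 (35.9%), against 11.2% of all genes. No region was at any of 9 Pax, 12 T-box, or 12 Iroquois and Six-family genes, which allows shares of up to 33.6%, 26.5% and 26.5%, so these families could not be told apart from all genes. Overlap regions of any IDR were at 1 Pax gene, no T-box gene and 3 of the 12 Iroquois and Six-family genes (25.0%, against 11.2% of all genes). Without replicate 1 the Pax share was 11.1%. Rab GTPases and their regulators had 9 of 93 (9.68%, 4.52 to 17.6), led by Rab3a, Rab38 and Rab10. The tyrosine and dual-specificity phosphatases had 8 of 60 (13.3%, 5.94 to 24.6), led by Dusp15, Dusp6 and Ptpn7.

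Solute carriers carry small molecules across membranes. Genes with a solute carrier symbol (Slc), matched by symbol and not by function, had 22 of 362 (6.08%, 3.85 to 9.06). Their share was 3.04% with gene ends within 500 bp, against 2.99% of all genes in that setting. Slc10a6, a carrier of steroid sulfates, had 1.42e-24 in replicate 1 and 3.57e-31 in replicate 2 at its far end. Slc2a1, the glucose carrier GLUT1, had 5.59e-11 in replicate 1 and 3.33e-40 in replicate 2. Ribosomal protein genes had 6 of 79 (7.59%, 2.84 to 15.8), Rpl27 first with 3.64e-16 in replicate 1 and 1.69e-23 in replicate 2. Zinc-finger genes named Zfp or alike had 14 of 415 (3.37%), and proteasome genes none of 39. Olfactory receptor genes had none of 1104, which allows a share of up to 0.334%, and vomeronasal receptors none of 354, which allows up to 1.04%. These receptors are made mainly by sensory neurons of the nose.

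WT1-type matches were more frequent in the promoter windows of the regions than in other windows. A window spans 250 bases before to 50 after an annotated start, and 213 of the 848 regions had their midpoint in one. GNGTGGGNG was found in 87 of these 213 windows (40.8%, 34.2 to 47.8), in 86 of 324 windows of weaker regions (26.5%, 21.8 to 31.7), and in 2484 of 17569 windows with no peak in either replicate (14.1%, 13.6 to 14.7). Over all 20085 windows the share was 15.5%. The narrower GCGTGGGNG was in 33 of 213 (15.5%, 10.9 to 21.1), against 8.02% of weaker and 1.80% of windows with no peak. Windows with a peak outside the overlap table held GNGTGGGNG in 178 of 813 for replicate 2 (21.9%, 19.1 to 24.9) and in 23 of 145 for replicate 1 (15.9%, 10.3 to 22.8). The interval for replicate 1 includes the share of windows with no peak.

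Windows of the regions had a median of 62.0% G and C, against 61.7% for weaker regions and 56.0% for windows with no peak. Within windows of at least 60% GC the match was in 61 of 132 (46.2%, 37.5 to 55.1), against 61 of 196 (31.1%, 24.7 to 38.1) for weaker regions and 1403 of 6580 (21.3%, 20.3 to 22.3) with no peak. For the other motifs given here, GCGTGGGNG included, the intervals of reproducible and weaker regions overlapped. The 2 intervals for GNGTGGGNG lay apart over all windows but overlapped within windows of at least 60% GC. GGGCGG, the GC box of SP factors, was in 70.9% of windows of the regions, 70.7% of weaker and 44.2% with no peak. CCAAT was in 37.6%, 39.8% and 38.2% of them in the same order, CCGGAAGT (ETS) in 5.63%, 5.86% and 5.22%, and GCGCANGCG (NRF1) in 8.92%, 7.10% and 8.57%. TATAAA was rarer, in 6.10% of windows of the regions and 6.48% of weaker ones, against 13.6% with no peak. The repeat TCCTCCTCC was in 7.51%, 5.86% and 2.69%.

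**Figure D4:**
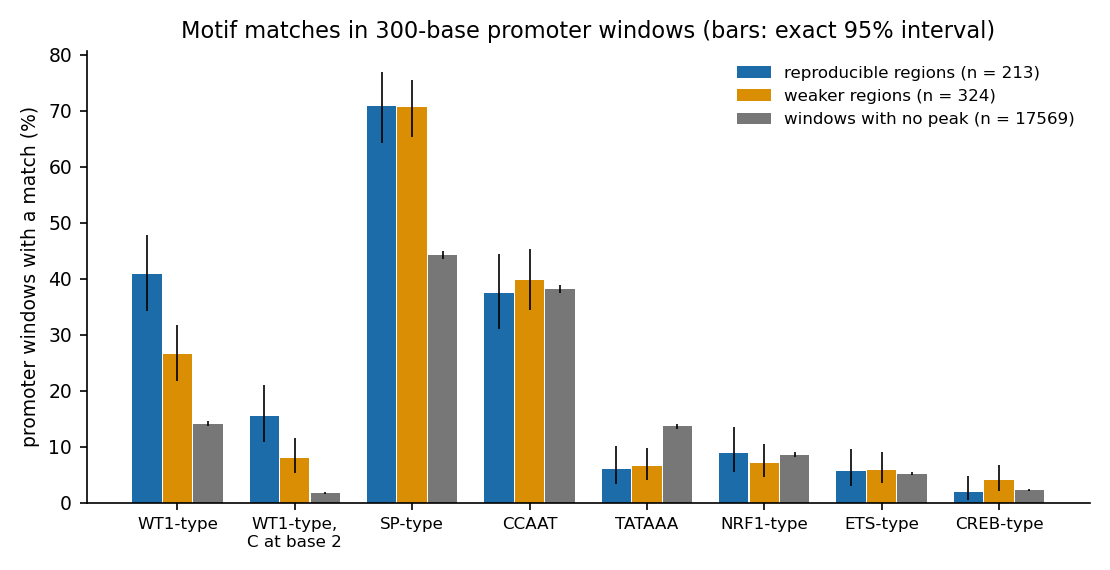
Share of promoter windows with a match (y axis, %) for 8 motifs (x axis), in windows of reproducible regions, of weaker regions and with no peak, with exact 95% intervals. The WT1-type match falls in that order at 40.8%, 26.5% and 14.1%, and CCAAT is level at 37.6%, 39.8% and 38.2%.

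The match was about as dense in the part of a window outside the region as inside it. There were 1.72 matches per kb inside (86 in 50019 bases) and 1.66 outside (23 in 13881 bases), against 0.572 per kb in windows with no peak. When the 213 regions were split by IDR into 3 sets of 71, windows held the match in 45.1% of the lowest, 46.5% of the middle and 31.0% of the highest set, with intervals that overlap. Regions with the match had a median value of 2.17e-06 in replicate 1 and 1.72e-13 in replicate 2, against 1.05e-05 and 6.1e-13 for those without. A match is a string of letters in the window, and binding at it was not tested.

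Many edges of the peaks fell at cut sites of enzymes used on the DNA. Per the labels' protocols, recovered DNA was cut with MseI (TTAA) together with either AluI (AGCT) or HaeIII (GGCC) before adapters were joined, and the enzyme pair of each sample is not stated. Edges could be placed where they lay in a promoter window. Of 289 such edges of replicate 1 peaks at the regions, 206 (71.3%, 65.7 to 76.4) were exactly at an AluI or MseI cut or where a stretch of 36 bases running from the cut into its fragment ended, against 1.57% of all positions in the windows. The 36 bases were read from the edges themselves. For replicate 2 it was 162 of 270 (exact interval 53.9% to 65.9%). HaeIII cuts gave 1.38% of replicate 1 and 2.22% of replicate 2 edges, against 1.43% of positions. Edges at AluI and MseI positions were thus frequent in both replicates, and those at HaeIII positions were near the level of all positions.

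**Figure D5:**
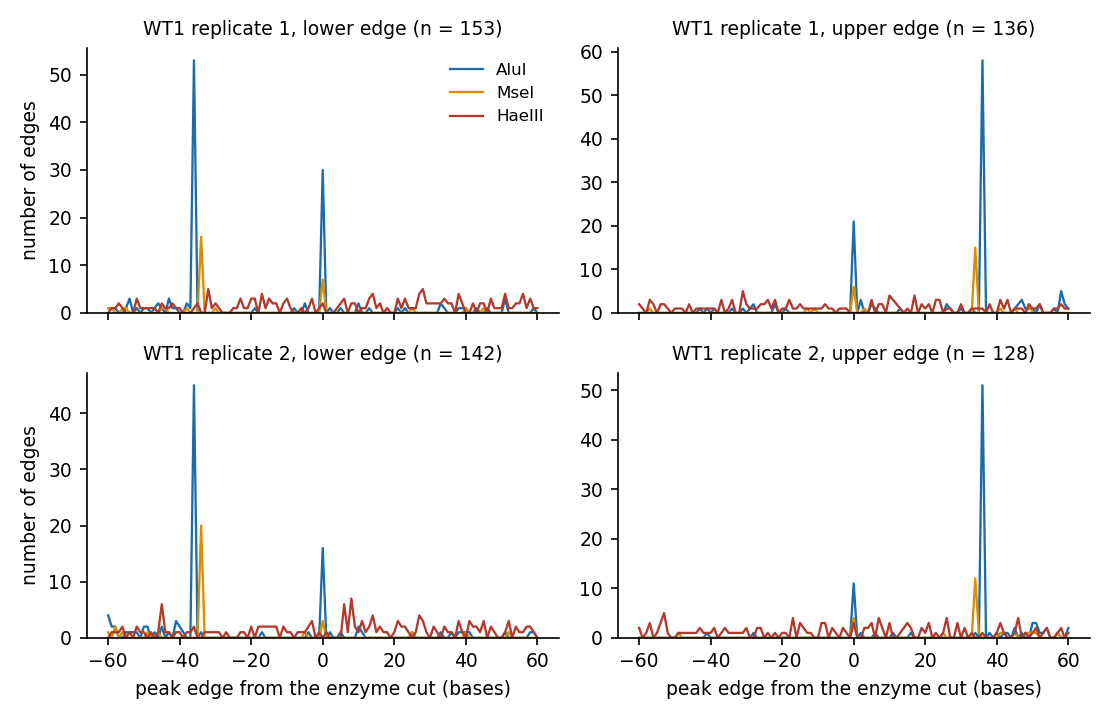
Number of peak edges (y axis) by distance from a cut of AluI, MseI or HaeIII (x axis, bases), for lower and upper edges of the replicates' peaks at the regions. The AluI and MseI curves have sharp peaks at the cut and about 36 bases from it in both replicates, and the HaeIII curve has none of that height.

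The edges of the 848 regions themselves were at AluI or MseI positions in 144 of 269 placed cases (53.5%, 47.4 to 59.6). The best peaks of both replicates began at the same base in 232 of 848 regions (27.4%, 24.4 to 30.5), against 1092 of 3512 elsewhere (31.1%, 29.6 to 32.7), and began and ended at the same bases in 70 (8.25%), against 382 (10.9%). Of the 213 windows with a region, 207 held an AluI site (97.2%, 94.0 to 99.0), against 74.4% of windows with no peak. Of 2465 windows with neither an AluI nor an MseI site, 68 (2.76%) overlapped a peak of either replicate and none held the midpoint of a reproducible region, which allows up to 0.150%. Of 8015 windows with an AluI site and no MseI site, 1338 (16.7%) overlapped a peak and 116 (1.45%) held such a midpoint. Beyond these values, the part of cut sites in the other results, gene counts included, was not tested.

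Regions close to the limits of the rule were as follows. Just inside the IDR limit were Alkbh2 (0.0499), Zkscan6 (0.0498) and Sh3bgr (0.0497), and just outside were Atf2 (0.0507) and Slc4a3 (0.0510). Just inside the distance limit were Tnpo2 (991 bp) and Myo1a (990.5 bp), and just outside were Smim5 (1002.5 bp) and Oxct1 (1004.5 bp). Atf2, a transcription factor of the CREB family, had 0.000281 in replicate 1 and 1.19e-05 in replicate 2. Smim5, a small membrane protein gene, had 2.09e-27 in replicate 1 and 1.15e-57 in replicate 2.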

How the data were processed

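Per the labels, WT1 was measured by ChIP-seq in 2 samples, with 2 IgG samples as negative control, and libraries had 18 rounds of PCR. The authors deposited a peak list per WT1 sample (53132 and 57641 peaks) and a table of 17234 overlap regions; no column was left unused. The deposited lists give a p-value or q-value per peak, cut at 0.05 and called the significance value; which it is, is not stated, and neither are the aligner, the peak caller or any use of IgG reads (not given in the sources used here). Values in the overlap table, between 0 and 1, were read as an IDR. The build is mm10, per the submitters' processing notes. BED starts were made 1-based.

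Regions were placed by midpoint against RefSeq genes (GRCm38.p6), which include predicted models; strand came from 20085 promoter windows for 16457 genes. The replicate value of a region is that of its overlapping peak of smallest value. Each of 721 of 749 listed symbols matched. Shares have exact Clopper-Pearson 95% intervals, which cover counting error over regions or genes only; the depth is unknown, and with 2 samples of 1 group no test was made. Regions, lists and motifs were chosen with earlier results of these data known. Genes named were the 15 regions of lowest IDR, up to 3 genes per list or family, all podocyte and progenitor genes, and extremes of width, shared ends, replicate ranks and thresholds; some genes that this rule names are counted but not reported here; sequences were limited, after the files were read, to regions with the midpoint, not just any base, in a window and a match inside the region; further Notch, FGF, BMP, Hippo and chromatin genes were named after their values were seen. Scripts used Python 3.11.15, pandas 2.3.3, numpy 2.4.6, SciPy 1.17.1 and matplotlib 3.10.9, and functions were tested on simulated data. Alternatives were IDR limits of 0.01 and 0.1, windows of 500 bp and 2 kb, any base for the midpoint, each replicate alone, other motifs and an edge tolerance of 5 bp.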

Additional observations from a re-analysis of the deposited data

How the results depend on the processing

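The number of regions (848) was 575 and 1017 at IDR limits of 0.01 and 0.1, and 600 and 1080 with gene ends within 500 bp and 2 kb. The share near 2 or more genes was 8.83% at 500 bp and 15.1% at 2 kb, and the share at a start was 94.7% at 500 bp and 86.3% at 2 kb; the cause was not tested, beyond the wider window holding more gene ends. The motif share was 15.5% with GCGTGGGNG and 81.7% with GNGNGGGNG. Region edges within a recognition site were 13.4% of 269, against 530334 of 8837400 inner window positions (exact interval 5.99% to 6.02%), and 21.9% with a tolerance of 5 bp (17.1 to 27.4), against 19.6% of positions, so with the tolerance they were at the level of all positions. With each replicate alone, regions numbered 729 to 908, genes 736 to 927, and the share near 2 or more genes was 10.4% to 13.3%. The best peaks at the 848 regions had a median width of 258 bp in replicate 1 and 311 bp in replicate 2. Lists above the share of all genes numbered 17 in the report and 17 or 18 under each alternative run, but the count does not say which lists. Shares left the interval of the reported share for 4 lists or families at an IDR of 0.01, 5 at 500 bp and 2 without replicate 2. At an IDR of 0.01 Wnt signalling, mitochondrial ribosomal protein genes and G protein-coupled receptor genes went to 0, the last also without replicate 2. At 500 bp the renal vesicle list, forkhead and kinesin genes went to 0, and solute carriers to 3.04%. The gamma protocadherin region was lost at an IDR of 0.01, at 500 bp and without replicate 2, which takes the family to 0%. Limits are the unknown depth, the unused IgG samples, 2 samples, and peak edges that follow AluI and MseI sites. Motif alternatives chosen after seeing the data were windows of at least 60% GC (46.2%) and windows with an AluI site (41.1%). No paired analysis was possible because peak lists were used for the WT1 group alone and no test between groups was made.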
